A study of Rattus norvegicus with 39 samples.

Results

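The cytochrome P450 genes of the rat liver were measured on 39 microarrays around a short warm ischemia and reperfusion. A gene was taken where its probe set carried a single symbol made of Cyp, a family number, a subfamily letter and a gene number. Cyp7a1, Cyp8b1, Cyp27a1, Cyp4a1 and symbols ending in -ps were left aside. This gave 70 genes of 15 families and 34 subfamilies, out of 18891 genes with 1 symbol and 23409 probe sets in all. Where a gene had several probe sets, as 5 genes did, the one with the highest mean was used.

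P450s are heme enzymes that insert oxygen into small molecules, mostly in the endoplasmic reticulum, with electrons passed on from NADPH by P450 reductase (Por). In liver, families 1 to 3 act mainly on drugs, foreign compounds and steroid hormones, family 4 hydroxylates fatty acids and eicosanoids at the end of the chain, and families with higher numbers make or break down sterols, steroid hormones, bile acids, vitamin D and retinoic acid. Many are read out by nuclear receptors: the constitutive androstane receptor (Nr1i3) for Cyp2b genes, the pregnane X receptor (Nr1i2) for Cyp3a genes and PPAR alpha (Ppara) for Cyp4a genes. In rats several Cyp2c genes depend on sex through the rhythm of growth hormone release.

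The animals were young male Wistar rats, a few weeks old when bought. In 12 of them the blood supply of the left and median lobes was clamped for 30 min and then released for 0, 0.5, 2 or 6 hr, with 0 hr meaning no reperfusion. The clamped left and median lobes, combined, gave the reperfused sample and the right lobe of the same animal, which was not clamped, the non-ischemic sample. Another 12 rats were sham-operated for the same 4 times, with the liver handled but not clamped, and 3 rats had no operation. Below, operated animals means the 12 rats with clamping and leaves out the shams. Each of the 13 groups held 3 arrays. The sources do not say from which lobe sham tissue came. Values are log2 of the deposited intensities, so a difference of 1 is a doubling, and they are not comparable between genes because each probe set binds its target with its own strength. Median intensity per array lay between 39.6 and 43.6 on the linear scale, and Ddx3y, a gene of the Y chromosome, lay between 11.88 and 13 on all 39 arrays.

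Tests were limited to the 11704 probe sets that varied most, with an interquartile range over the 39 arrays above 0.26. Of the P450 genes 45 passed and 25 did not. Among the latter, 14 had a mean under 5, where most of the signal is background, and these are mainly genes of steroid-making glands and other tissues: Cyp1b1, Cyp2g1, Cyp2w1, Cyp4f18, Cyp4x1, Cyp11a1, Cyp11b3, Cyp19a1, Cyp21a1, Cyp24a1, Cyp26b1, Cyp26c1, Cyp27b1 and Cyp46a1. The other 11 were measurable but varied little: Cyp2a3, Cyp2b12, Cyp2c23, Cyp2c66, Cyp2c6v1, Cyp2c7, Cyp2d2, Cyp2e1, Cyp2s1, Cyp3a2 and Cyp4f40. A gene was called where its q-value, the p of limma's moderated test with Benjamini-Hochberg adjustment over the 11704 probe sets, was under 0.05.

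At 6 hr of reperfusion 16 P450 genes were lower and 2 were higher in the reperfused lobes than in the 12 pooled shams. In the non-ischemic lobes of the same animals 15 were lower and 1 was higher. Genes of the Cyp4f and Cyp2d subfamilies, Cyp39a1, Cyp2t1, Cyp2j3 and Cyp2f4 made up most of the falls, and Cyp2c80 and Cyp2c22 the rises. That is 40% and 35.6% of the 45 tested members, against 28.9% and 24.8% of all tested probe sets. By direction, 9.25% of all probe sets were called lower and 19.7% higher in the reperfused lobes. In the non-ischemic lobes these shares were 9.74% and 15.1%. The median difference over the 45 tested P450 genes was -0.33 in the reperfused and -0.35 in the non-ischemic lobes, against 0.02 and -0.0022 over all tested probe sets. The same shams entered both comparisons. All 3 reperfused lobes lay below all 12 shams in 8 members and above them in 2, where 5.55% and 11.1% of all probe sets did so. The non-ischemic lobes lay below all shams in 8 members and above them in none, against 5.49% and 8.58% of all probe sets. After quantile normalization the split over all probe sets in the reperfused lobes moved from 2301 higher and 1083 lower to 1764 and 1405, and 19 P450 genes were called. Against the 3 shams of 6 hr alone, 13 P450 genes were called in the reperfused lobes (10 lower, 3 higher) and 10 in the non-ischemic lobes (9 lower, 1 higher), with 18.7% and 15.1% of all probe sets. The median differences from these 3 shams were -0.15 and -0.21, against 0.04 and 0.02 over all tested probe sets. The 6 hr shams themselves differed from the earlier shams by a median of -0.16 over the 45 members, against 0.02 over all. Without the non-ischemic sample of animal 1 the count of the non-ischemic lobes against the pooled shams was 7. In whole tissue, fewer cells of a type and less RNA per cell cannot be told apart.

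**Figure D1:**
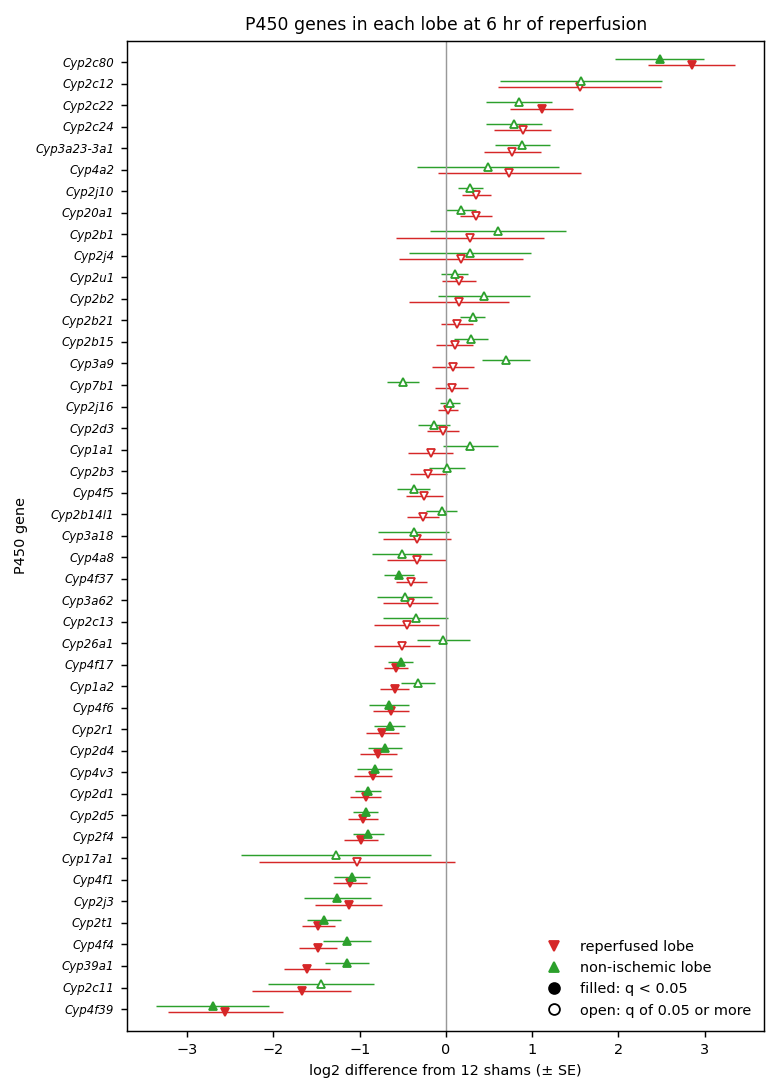
Log2 difference from the 12 shams (x axis, with standard errors) of the 45 tested P450 genes (y axis) in the reperfused lobes (red) and non-ischemic lobes (green) at 6 hr, 3 arrays each, filled where q was under 0.05. Cyp4f39 lies farthest to the left, at -2.56 and -2.70, and Cyp2c80 farthest to the right, at 2.85 and 2.48.

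Earlier fewer members were called against the pooled shams. At 0 hr no member was called in either lobe, with 0% of all probe sets called in the reperfused and 0.0342% in the non-ischemic lobes. At an unadjusted p under 0.05 there were 5 of 45 in each, against 15% and 14.3% of all probe sets. At 0.5 hr no member was called in the reperfused lobes (1.56% of all probe sets called), with 9 at an unadjusted p under 0.05 against 17.8% of all, and 1, Cyp3a23-3a1, was higher in the non-ischemic lobes (1.17% of all probe sets called), with 20 at an unadjusted p under 0.05 against 17.1% of all. At 2 hr 4 members were lower in the reperfused lobes, where 5.15% of all probe sets were called lower: Cyp2t1 by 0.85 (SE 0.20, q = 0.0106), Cyp2u1 by 0.81 (SE 0.17, q = 0.00639), Cyp2r1 by 0.62 (SE 0.18, q = 0.031) and Cyp7b1 by 0.61 (SE 0.17, q = 0.0281), as differences below the sham mean. The 2 hr non-ischemic lobes had 7 lower, the same 4 with Cyp2f4 (-1.13, SE 0.19, q = 0.00316), Cyp2b3 and Cyp39a1 (-0.73, SE 0.23, q = 0.0442), and Cyp3a23-3a1 higher, against 5.93% of all probe sets called lower and 8.11% higher. These 2 hr counts were small and unsteady: without reperfused sample 1, 2 or 3 they were 0, 2 and 1, without non-ischemic sample 1, 2 or 3 they were 1, 2 and 5, and without the sham of 2 hr with number 3 the reperfused count was 9. Against the 2 hr shams alone no member was called in either lobe, with 1.74% and 0.00854% of all probe sets called.

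**Figure D2:**
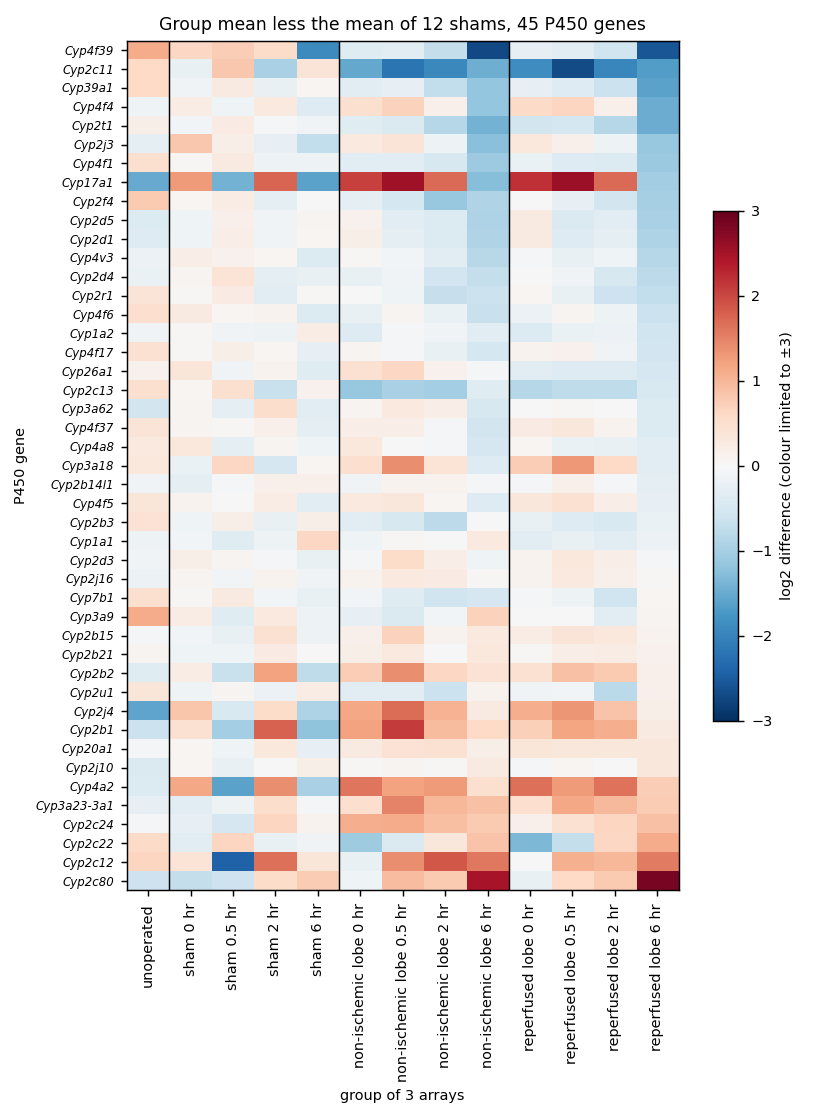
Mean of each group of 3 arrays less the mean of the 12 shams (colour, log2, limited to 3 either way) for the 45 tested P450 genes (rows, ordered by the reperfused lobes at 6 hr) in the 13 groups (columns). In the lobes at 6 hr Cyp4f39 (-2.56 and -2.70) and Cyp2c80 (2.85 and 2.48) hold the extremes, and sham groups differ among themselves in Cyp17a1, Cyp4a2 and Cyp2b1.

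Cyp1a1 and Cyp1a2 oxidize flat aromatic compounds and are induced through the aryl hydrocarbon receptor (Ahr), and Cyp1a2 is the main caffeine-oxidizing enzyme of liver. Cyp1a2 read 18.72, 18.04 and 18.74 in the reperfused lobes at 6 hr against 18.59 to 19.37 in the shams (median 19.13). The ranges overlapped, and it was lower by 0.59 (SE 0.17, q = 0.0146). In the non-ischemic lobes it read 18.54, 18.28 and 19.48, a difference of -0.33 (SE 0.20, q = 0.248). Cyp1a1 was dim, with a mean of 4.38 over all arrays, a level at which most of the signal is background. Among the shams it was highest at 6 hr, at 5.01, 5.01 and 5.18 against 3.83 to 4.87 in the 9 earlier shams, without overlap. The highest single value, 5.68, was that of the non-ischemic lobe of animal 3 at 6 hr. The difference between the shams was 0.82 (SE 0.19, q = 0.0171). Beside it, Cyp4f39 and Cyp4f6 were called, both lower in the 6 hr than in the earlier shams, where 11.3% of all probe sets were called. All 3 calls rest on 3 late shams, and with 6 hr sham 1 or 3 left out only 1 remained.

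The Cyp2d genes, which hydroxylate basic drugs, lie side by side on chromosome 7 (GRCr8) within 56.6 kb, from 115762662 to 115819281, in the order Cyp2d4, Cyp2d5, Cyp2d1, Cyp2d3, Cyp2d2. The first 3 were lower at 6 hr in both lobes. Cyp2d3 was not called and Cyp2d2 was outside the tested set. Cyp2d1 read 16.42, 15.27 and 15.59 in the reperfused and 16.30, 15.48 and 15.57 in the non-ischemic lobes, against 16.45 to 16.91 in the shams (median 16.65). All 6 lobes lay below all 12 shams. The differences were -0.93 (SE 0.18, q = 0.0012) and -0.91 (SE 0.15, q = 0.000909). Cyp2d5 gave nearly the same values, -0.96 (SE 0.17) and -0.93 (SE 0.15). Cyp2d4 gave -0.78 (SE 0.21, q = 0.0117) and -0.71 (SE 0.20, q = 0.0161). Cyp2d3, by contrast, read 16.64, 16.62 and 16.42 in the reperfused lobes, inside the sham range of 16.11 to 17.23, with a difference of -0.03 (SE 0.19, q = 0.914). Fitted without the filter, Cyp2d2 differed by -0.04 (SE 0.13) and 0.01 (SE 0.12). The difference between Cyp2d1 and Cyp2d3 was not tested, as the pair was chosen after its values were seen.

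Levels of Cyp2d1 below the lowest sham were not limited to 6 hr. Of the unoperated livers, number 3 read 15.66. The reperfused and non-ischemic lobes of animal 3 at 2 hr read 15.93 and 15.73, those of animal 1 at 0.5 hr 16.10 and 16.20, and those of animal 3 at 0.5 hr 16.03 and 16.25. Cyp2d5 was low in the same samples, at 15.86 in that unoperated liver and at 15.96 and 15.94 in animal 3 at 2 hr. The lobes of an animal differed in Cyp2d1 by 0.11 on average, against an SD of 0.44 between animals of the same time.

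The start regions of Cyp2d1, Cyp2d5 and Cyp2d3 are shown because these neighbours are close in sequence and the first 2 were called lower at 6 hr while Cyp2d3 was not. Each run covers 300 bases around the annotated start, most of them before it, 5′ to 3′ along the gene, from RefSeq on GRCr8, a reference genome and not that of these rats. Capitals mark TTTATA, the reverse complement of the searched letters TATAAA.
Cyp2d1 (chr7:115793381-115793680, minus strand): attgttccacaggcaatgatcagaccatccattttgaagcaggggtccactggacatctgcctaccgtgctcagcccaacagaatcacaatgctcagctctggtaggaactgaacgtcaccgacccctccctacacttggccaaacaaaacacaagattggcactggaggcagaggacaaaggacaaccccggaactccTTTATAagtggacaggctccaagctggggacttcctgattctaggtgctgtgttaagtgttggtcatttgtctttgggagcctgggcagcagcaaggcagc
Cyp2d5 (chr7:115784438-115784737, minus strand): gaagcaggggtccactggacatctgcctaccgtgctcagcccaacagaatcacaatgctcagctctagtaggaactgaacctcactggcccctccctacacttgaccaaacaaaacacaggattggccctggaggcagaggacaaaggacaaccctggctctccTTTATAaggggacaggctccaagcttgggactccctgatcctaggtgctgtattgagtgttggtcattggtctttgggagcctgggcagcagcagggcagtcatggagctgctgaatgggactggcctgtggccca
Cyp2d3 (chr7:115802093-115802392, minus strand): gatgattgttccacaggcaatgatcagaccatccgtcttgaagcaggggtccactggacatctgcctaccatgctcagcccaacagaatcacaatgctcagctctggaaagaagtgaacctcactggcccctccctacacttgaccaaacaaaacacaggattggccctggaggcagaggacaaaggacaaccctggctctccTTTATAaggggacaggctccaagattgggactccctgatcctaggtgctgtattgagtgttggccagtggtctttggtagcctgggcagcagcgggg

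In local alignment Cyp2d3 and Cyp2d5 matched at 251 of 261 positions (96.2%), Cyp2d1 and Cyp2d5 at 246 of 264 (93.2%) and Cyp2d1 and Cyp2d3 at 266 of 292 (91.1%). So Cyp2d5, which was lower at 6 hr, is closer in the aligned stretch to Cyp2d3, which was not called, than to Cyp2d1. The window of Cyp2d5 reaches deeper into its annotated gene than those of Cyp2d1 and Cyp2d3, so the aligned stretches are not the same. All 3 hold the TATAAA letters on the reverse strand. On either strand these letters were found in 18 of the 59 P450 genes with a start region in the table (30.5%) and in 14.3% of the 27457 genes with one. Where a gene had several start regions the first was used. Genes this alike can share hybridization, and the part of this in the near-equal values of Cyp2d1 and Cyp2d5 was not tested.

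**Figure D3:**
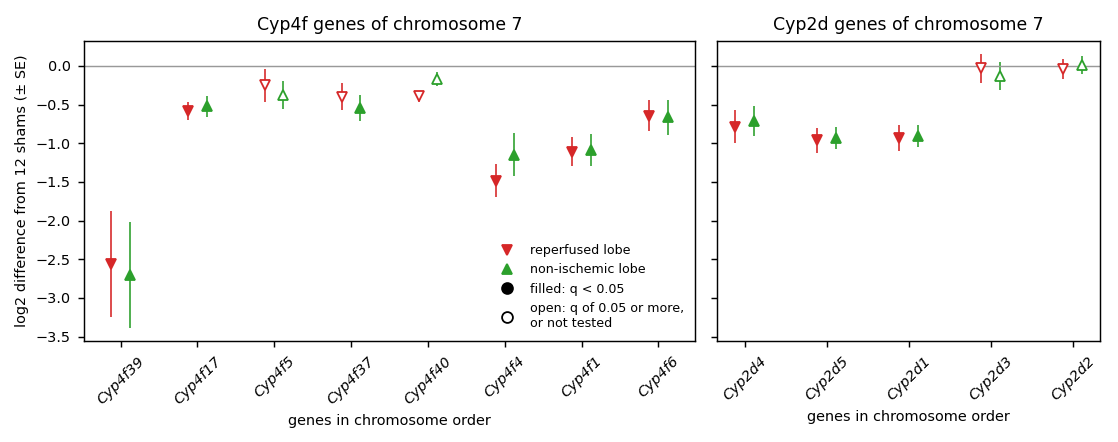
Log2 difference from the 12 shams at 6 hr (y axis, with standard errors) for the Cyp4f and Cyp2d genes of chromosome 7 in chromosome order (x axis), reperfused lobes in red and non-ischemic lobes in green, filled where q was under 0.05 and open otherwise or where not tested. Cyp4f39 lies lowest, at -2.56 and -2.70, and Cyp2d3 and Cyp2d2 lie near 0 beside Cyp2d4, Cyp2d5 and Cyp2d1.

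The Cyp2c genes went in different directions. Cyp2c11, the main testosterone-hydroxylating P450 of adult male rat liver, was lower in the reperfused lobes at 6 hr, and Cyp2c80 and Cyp2c22 were higher. Cyp2c80, which carries the symbol Cyp2c55 in RefSeq, read 9.94, 10.24 and 9.37 at 6 hr in the reperfused and 9.46, 10.14 and 8.85 in the non-ischemic lobes. The shams ran from 6.07 to 8.95 with a median of 6.73, so the reperfused lobes lay above all of them and 1 non-ischemic lobe just below the highest, which was a 6 hr sham. The differences were 2.85 (SE 0.51, q = 0.000791) and 2.48 (SE 0.52, q = 0.00321). Against the 6 hr shams alone they were 2.08 (q = 0.0299) and 1.71 (q = 0.0611).

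Cyp2c22, which in rat liver hydroxylates retinoic acid, read 19.26, 19.14 and 18.83 in the reperfused lobes at 6 hr, above all shams (16.92 to 18.80). The non-ischemic lobes read 19.28, 18.80 and 18.35 and reached into the sham range. The differences were 1.11 (SE 0.37, q = 0.0329) and 0.85 (SE 0.38, q = 0.117), and the first was no longer called without any single reperfused array of 6 hr. At 0 hr the reperfused lobes had read 16.36, 16.02 and 17.49. Cyp2c22 was 1 of 12 members that changed with time in the operated animals (F-test on the mean of both lobes of 12 animals, q = 0.00158), in which 36.4% of all probe sets were called, and it rose by 2.19 from 0 to 6 hr.

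Cyp2c11 varied widely between animals, from 12.29 to 18.49 over the 39 arrays. The lowest were animals 2 of 0, 0.5 and 2 hr, with 13.38, 12.29 and 13.70 in the reperfused and 13.56, 12.89 and 13.79 in the non-ischemic lobes. The unoperated livers (17.69 to 18.41) and the shams of 0.5 and 6 hr (17.66 to 18.49) were all high, and the shams of 0 and 2 hr ran from 15.19 to 18.41. At 6 hr the reperfused lobes read 15.18, 16.08 and 15.96, a difference of -1.67 (SE 0.58, q = 0.0382) from the pooled shams and of -2.06 (SE 0.25, q = 0.00485) from the 6 hr shams. The non-ischemic lobes differed by -1.45 (SE 0.62, q = 0.0969) from the pooled shams. Without the shams of 0.5 hr or of 6 hr, the q of the reperfused lobes was 0.103 and 0.0832.

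Cyp2c12 is the female-predominant counterpart in adult rats. Here, in young males, its probe set ran from 11.90 to 18.36 over all arrays. It read 12.56 to 13.98 in the 0.5 hr shams and 15.15 to 17.84 in the non-ischemic lobes of that time. The reperfused lobes read 13.69, 17.58 and 18.36, the first of them within the range of those shams. In animal 3 at 0 hr it was low in the reperfused and non-ischemic lobes (12.59 and 11.90) where Cyp2c11 was high (18.15 and 18.19). Animal 2 of that time showed the reverse, with Cyp2c12 at 17.57 and 16.05 and Cyp2c11 at 13.38 and 13.56. No comparison with the pooled shams called Cyp2c12. Whether Cyp2c11 and Cyp2c12 ran opposite over all animals was not tested. Nor was it tested whether relatives contribute to the signal of Cyp2c12. Cyp2c13, male-specific in adult rats, differed by -0.45 (SE 0.38, q = 0.392) and -0.35 (SE 0.38, q = 0.531) in the lobes at 6 hr and was not called.

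The start regions of Cyp2c11 and Cyp2c80 are shown as relatives whose probe sets moved in opposite directions at 6 hr. Capitals mark TATAAA.
Cyp2c11 (chr1:246174966-246175265, plus strand): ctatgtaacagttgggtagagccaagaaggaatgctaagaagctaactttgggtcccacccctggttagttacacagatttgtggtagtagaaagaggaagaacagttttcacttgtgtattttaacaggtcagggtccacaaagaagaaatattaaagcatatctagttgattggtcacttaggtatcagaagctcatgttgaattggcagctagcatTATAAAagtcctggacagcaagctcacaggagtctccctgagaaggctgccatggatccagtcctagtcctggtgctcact
Cyp2c80 (chr1:246421533-246421832, plus strand): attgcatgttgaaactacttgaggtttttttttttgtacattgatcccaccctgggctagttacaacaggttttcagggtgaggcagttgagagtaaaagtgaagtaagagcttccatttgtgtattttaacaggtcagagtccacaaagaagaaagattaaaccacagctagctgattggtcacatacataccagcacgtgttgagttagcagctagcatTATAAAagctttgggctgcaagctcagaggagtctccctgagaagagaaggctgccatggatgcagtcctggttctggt

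They matched at 209 of 267 aligned positions (78.3%), gaps counted as mismatched. Of the 10 Cyp2c members, Cyp2c6v1 (18.98 to 19.58), Cyp2c7 (18.46 to 19.70) and Cyp2c23 (17.68 to 18.59) lay near the top of the scale, where an array responds less to more RNA and where the highest value of any probe set was 19.93. Cyp2c13 (up to 19.54), Cyp1a2 (up to 19.48) and Cyp2c22 (up to 19.28), described above, reached as high, and what this took from their differences was not tested. Fitted without the filter, Cyp2c6v1 differed by 0.09 (SE 0.09) and 0.11 (SE 0.08) at 6 hr and Cyp2c7 by -0.12 (SE 0.19) and -0.16 (SE 0.19). Cyp2c23, an arachidonic acid epoxygenase, read 17.83, 17.74 and 17.86 in the reperfused lobes, all below the shams (18.02 to 18.37), with a difference of -0.39 (SE 0.07, q = 0.00101) adjusted over all 23409 probe sets.

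Cyp2b1 and Cyp2b2, the phenobarbital-induced P450s, varied with the animal. Cyp2b1 read 16.72, 16.38 and 17.38 in the non-ischemic and 15.93, 15.26 and 16.55 in the reperfused lobes at 0.5 hr, and the reperfused lobe was the lower in all 3 animals. The difference between the lobes was -0.91 and was called with the animal as a block (SE 0.11, q = 0.0327) but not without it (q = 0.888). With the block 1.02% of all probe sets were called at 0.5 hr and 1.84% at 2 hr, and Cyp2b1 was the only P450 gene. Without the block no P450 gene differed between the lobes at any time, with 0, 1, 2 and 0 members at an unadjusted p under 0.05 at 0, 0.5, 2 and 6 hr, against 1.55%, 5.27%, 7.48% and 2.14% of all probe sets. Of all probe sets 0%, 0.154%, 0.111% and 0% were called at these times. The 0.5 hr shams read 14.07, 13.54 and 13.50 in Cyp2b1, below both lobes, while the 2 hr shams read 16.52, 15.57 and 17.37. Cyp2b2 gave the same order of groups at 0.5 hr, with 15.36 to 15.84 in the non-ischemic lobes, 14.61 to 15.53 in the reperfused lobes and 13.35 to 13.77 in the shams.

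The start regions of Cyp2b1 and Cyp2b2 are given because both probe sets gave the same order of groups at 0.5 hr. Capitals mark the bases that the local alignment did not match, the unaligned ends included.
Cyp2b1 (chr1:90645869-90646168, plus strand): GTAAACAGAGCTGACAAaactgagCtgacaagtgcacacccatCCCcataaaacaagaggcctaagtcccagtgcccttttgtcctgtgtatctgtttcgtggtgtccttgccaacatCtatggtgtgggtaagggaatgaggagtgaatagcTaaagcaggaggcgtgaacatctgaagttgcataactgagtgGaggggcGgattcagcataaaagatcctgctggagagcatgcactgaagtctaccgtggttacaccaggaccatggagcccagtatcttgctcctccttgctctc
Cyp2b2 (chr1:90722031-90722330, plus strand): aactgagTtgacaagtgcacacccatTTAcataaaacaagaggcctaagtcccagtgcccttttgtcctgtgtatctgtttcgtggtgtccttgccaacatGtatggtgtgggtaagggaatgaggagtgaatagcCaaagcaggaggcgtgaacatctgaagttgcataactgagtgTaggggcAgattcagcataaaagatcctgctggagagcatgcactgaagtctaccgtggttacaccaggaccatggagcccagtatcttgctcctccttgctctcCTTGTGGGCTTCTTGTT

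The pair matched at 275 of 283 positions (97.2%) with 8 mismatches and no gap. With targets so alike, their probe sets may read each other's RNA, which was not tested. Their relative Cyp2b3 went down: at 2 hr the non-ischemic lobes read 17.34, 16.83 and 17.27 against 17.17 to 18.27 in the shams, a difference of -0.77 (SE 0.21, q = 0.0255). At 6 hr it lay within the sham range in the non-ischemic lobes, at 17.68, 17.91 and 18.20. None of the 6 tested Cyp2b members was called in either lobe at 6 hr.

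Cyp3a genes oxidize steroids and a wide range of drugs. Cyp3a23-3a1, induced through the pregnane X receptor, read 18.49, 18.79 and 18.82 in the non-ischemic lobes at 0.5 hr, above all shams (16.31 to 18.16). The difference was 1.50 (SE 0.31, q = 0.0262). It was 1.01 (SE 0.32, q = 0.0467) at 2 hr and 0.88 (SE 0.32, q = 0.0529) at 6 hr, where it was not called. The reperfused lobes at 0.5 hr read 18.14, 18.40 and 18.50 and just reached into the sham range. The call at 0.5 hr was lost without any single non-ischemic array of that time, and that at 2 hr in 11 of the 15 fits that left out 1 array.

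Cyp3a2 (18.33 to 19.60) and Cyp2e1, the ethanol-oxidizing P450 (18.14 to 19.53), lay near the top of the scale, and without the filter they differed by -0.26 (SE 0.18) and 0.13 (SE 0.23) in the reperfused lobes at 6 hr. Cyp3a18 differed by -0.33 (SE 0.40) and -0.38 (SE 0.41). Cyp3a9 was lower in the pooled shams than in the unoperated livers by 1.11 (SE 0.23, q = 0.0148), at 10.62 to 11.63 against 12.05 to 12.47. Its second probe set went the other way, so that the mean of both was higher in the shams by 0.97 (q = 0.0495). The call therefore holds for the first probe set alone. Cyp3a9 and Cyp2f4, lower by 0.79 (SE 0.18, q = 0.031), were the 2 members called there, with 2.37% of all probe sets called. Leaving out any single unoperated liver left no call.

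Several members of family 2 outside the larger subfamilies fell at 6 hr. Cyp2t1 read 8.87, 8.90 and 8.99 in the reperfused and 8.75, 8.97 and 9.23 in the non-ischemic lobes, below all shams (9.79 to 10.75). It had the smallest q of the family at 6 hr and was lower by 1.48 (SE 0.19, q = 7.04e-05) and 1.41 (SE 0.20, q = 0.000292). It was already lower in both lobes at 2 hr. Cyp2f4, known in lung for activating naphthalene, was lower by 0.98 (SE 0.20, q = 0.00181) and 0.90 (SE 0.18, q = 0.0026), and all 6 lobes (7.80 to 8.47) lay below the shams (8.63 to 9.73). Cyp2r1, a vitamin D 25-hydroxylase, was lower by 0.74 (SE 0.19, q = 0.0091) and 0.65 (SE 0.18, q = 0.0157). Cyp2u1, a fatty acid hydroxylase, was called at 2 hr and not at 6 hr. Its reperfused lobes read 5.33, 6.03 and 5.83 at 2 hr and 6.84, 7.18 and 6.07 at 6 hr, with the shams at 6.13 to 7.04, and the F-test over time did not call it (q = 0.0601).

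Cyp2j3, an arachidonic acid epoxygenase, read 14.10, 14.39 and 13.84 in the reperfused lobes at 6 hr and was lower by 1.13 (SE 0.39, q = 0.0373) and, in the non-ischemic lobes, 1.26 (SE 0.39, q = 0.0261). The 6 hr shams were low too, at 14.83, 13.90 and 14.75, within a sham range of 13.90 to 16.50. Against those 3 the differences were -0.39 (q = 0.362) and -0.52 (q = 0.224). Its neighbour on chromosome 5, Cyp2j4, differed by 0.18 (SE 0.72) and 0.27 (SE 0.71) from the pooled shams, whose values ran from 13.24 to 16.92.

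Family 4 held the lowest difference from the pooled shams at 6 hr. Cyp4f39, whose human counterpart CYP4F22 hydroxylates very long fatty acids of skin lipids, read 6.36, 6.98 and 7.04 in the reperfused and 6.44, 6.84 and 6.66 in the non-ischemic lobes of 6 hr. The 9 earlier shams read 9.38 to 10.91 and the 6 hr shams 7.50, 7.77 and 7.05. So the gene was low in every liver taken at 6 hr, with the lobes below all shams. The differences from the pooled shams were -2.56 (SE 0.66, q = 0.00863) and -2.70 (SE 0.66, q = 0.00779), and those from the 6 hr shams alone -0.65 (q = 0.119) and -0.79 (q = 0.0424). The 6 hr shams were themselves lower than the earlier ones by 2.55 (SE 0.28, q = 0.000174). Without animal 1 of 6 hr the call against the pooled shams was lost in each lobe.

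**Figure D4:**
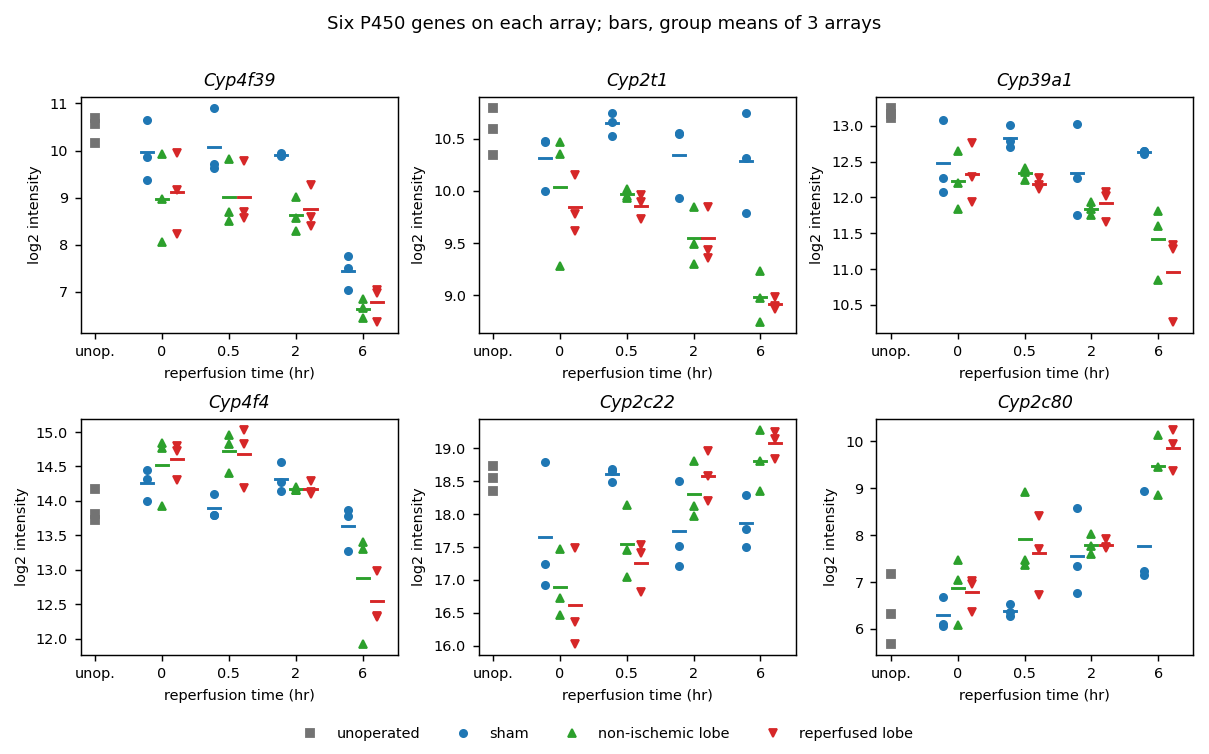
Log2 intensity (y axis) of 6 P450 genes on each array by reperfusion time (x axis, unop. for unoperated), with unoperated livers in grey, shams in blue, non-ischemic lobes in green and reperfused lobes in red, and bars at group means. At 6 hr Cyp2t1 and Cyp39a1 lie below the shams of that time in both lobes, Cyp4f39 is low in shams and lobes alike (7.05 to 7.77 and 6.36 to 7.04), and Cyp2c80 reaches 10.24.

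The 8 Cyp4f genes of chromosome 7 lie between 12082821 and 12708378 (GRCr8), a stretch of 626 kb with 5 other protein-coding genes. Of the 7 tested, 5 were lower in the reperfused and 6 in the non-ischemic lobes at 6 hr, and none was higher. Cyp4f4 read 12.32, 12.99 and 12.33 in the reperfused lobes against 13.27 to 14.56 in the shams, without overlap, and was lower by 1.48 (SE 0.22, q = 0.000239). In the non-ischemic lobes it read 11.92, 13.31 and 13.41 and was lower by 1.15 (SE 0.28, q = 0.00722). Cyp4f1, a leukotriene B4 hydroxylase, read 16.34, 16.69 and 16.82 in the reperfused and 16.13, 16.78 and 17.01 in the non-ischemic lobes, below all shams (17.19 to 18.23), and was lower by 1.11 (SE 0.19, q = 0.000671) and 1.09 (SE 0.21, q = 0.00211). Cyp4f6 was lower by 0.64 (SE 0.21, q = 0.0289) and 0.66 (SE 0.23, q = 0.045) and Cyp4f17 by 0.58 (SE 0.14, q = 0.00481) and 0.52 (SE 0.15, q = 0.0161). The 6 hr shams were themselves called lower than the earlier shams in Cyp4f6, as in Cyp4f39. Cyp4f39 and Cyp4f1 lay below the 6 hr shams in both lobes and Cyp4f4 in the reperfused lobes. Cyp4f6 and Cyp4f17 overlapped the 6 hr shams in both lobes. Cyp4f37 was called in the non-ischemic lobes (-0.54, SE 0.18, q = 0.0336) but not in the reperfused lobes (-0.40, SE 0.18, q = 0.111), and the lobes did not differ from each other by test (q = 0.997). Cyp4f5 was not called in either. Cyp4f40, outside the tested set, read 6.06, 6.16 and 6.09 in the reperfused lobes, below all shams (6.36 to 6.72).

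The start region of Cyp4f39 is given for the lowest difference from the pooled shams at 6 hr. It lies around the transcript start used in the RefSeq table, inside the gene's annotated span, which begins at 12082821. Capitals mark CACGC, the reverse complement of GCGTG, the core of the element bound by the aryl hydrocarbon receptor.
Cyp4f39 (chr7:12083638-12083937, plus strand): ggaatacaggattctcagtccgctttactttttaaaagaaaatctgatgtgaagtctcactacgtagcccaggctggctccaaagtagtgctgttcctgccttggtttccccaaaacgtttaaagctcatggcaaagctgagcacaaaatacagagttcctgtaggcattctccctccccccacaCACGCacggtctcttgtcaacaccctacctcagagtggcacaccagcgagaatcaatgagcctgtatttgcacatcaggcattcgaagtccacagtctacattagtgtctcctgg

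Searched on both strands, GCGTG was held by 18 of the 59 P450 genes with a start region (30.5%) and by 31.1% of all genes with one. Of the 16 members lower in the reperfused lobes at 6 hr, 13 had a start region in the table, and Cyp4f4, Cyp4f17 and Cyp4v3 were not searched. It was found in Cyp4f1, Cyp4f6, Cyp4f39, Cyp2r1, Cyp2t1 and Cyp39a1. It was not in the window of Cyp1a2. So short a string is common, and its presence is a description of the window only.

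Cyp4a2 hydroxylates fatty acids and is a target of PPAR alpha. Its shams differed by time, with 18.68, 17.95 and 18.03 at 2 hr but 15.42, 15.23 and 15.00 at 0.5 hr and 14.83, 16.71 and 15.98 at 6 hr. The lobes read between 17.00 and 18.78 at all 4 times. No comparison with the pooled shams called it. The time course differed between operated animals and shams (interaction F-test on 24 animals, q = 0.0416). That call was lost in 25 of the 36 fits that left out 1 array. In these fits leaving out a lobe left out its animal, so an operated animal is counted once for each lobe. Against the 6 hr shams alone the reperfused lobes were 1.71 higher (q = 0.0367). Cyp4v3 was lower by 0.84 (SE 0.22, q = 0.0101) and 0.83 (SE 0.20, q = 0.0082) at 6 hr.

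Of the members of families 7 and higher, which include the sterol and steroid genes, only Cyp39a1, which hydroxylates the cholesterol breakdown product 24-hydroxycholesterol, was called against the pooled shams at 6 hr. It read 11.28, 11.34 and 10.26 in the reperfused lobes at 6 hr, below all shams (11.75 to 13.08), and 10.85, 11.60 and 11.82 in the non-ischemic lobes, where 1 value entered the sham range. The differences were -1.61 (SE 0.27, q = 0.000486) and -1.15 (SE 0.26, q = 0.00481). The lobes numbered 3, taken as 1 animal, differed by 1.56, the reperfused being lower. Cyp7b1, an oxysterol hydroxylase of bile acid synthesis, was lower at 2 hr by 0.61 (SE 0.17, q = 0.0281) and 0.61 (SE 0.18, q = 0.0335). At 6 hr its differences were 0.06 (SE 0.19, q = 0.831) and -0.50 (SE 0.18, q = 0.0575). Cyp26a1, which degrades retinoic acid, was not called in any comparison and differed by -0.51 (SE 0.32) and -0.03 (SE 0.30) at 6 hr. Among the remaining tested members Cyp2c24, Cyp2j10, Cyp2j16, Cyp3a62 and Cyp4a8 were not called in any lobe against the pooled shams. Cyp20a1, without a known substrate, differed by 0.35 (SE 0.19) and 0.18 (SE 0.18).

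Cyp17a1, the steroid hydroxylase of androgen and glucocorticoid synthesis, was high in some animals and low in others. The unoperated livers (11.23 to 11.96), the 0.5 hr shams (10.73 to 12.28) and the 6 hr shams (10.94 to 12.14) were low. The 0 hr shams read 15.25, 12.33 and 15.52 and the 2 hr shams 16.30, 12.35 and 15.91, so that number 2 of each was low and the others high. The operated animals read 13.16 to 16.40 in both lobes from 0 to 2 hr. At 6 hr they read 13.92, 11.33 and 10.95 in the reperfused and 12.88, 11.45 and 11.14 in the non-ischemic lobes. In the operated animals it fell by 3.28 from 0 to 6 hr and passed the F-test over time (q = 0.0189), but not without animal 2 or 3 of 6 hr. The comparisons with the pooled shams did not pass at any time, and the shams spanned 10.73 to 16.30.

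**Figure D5:**
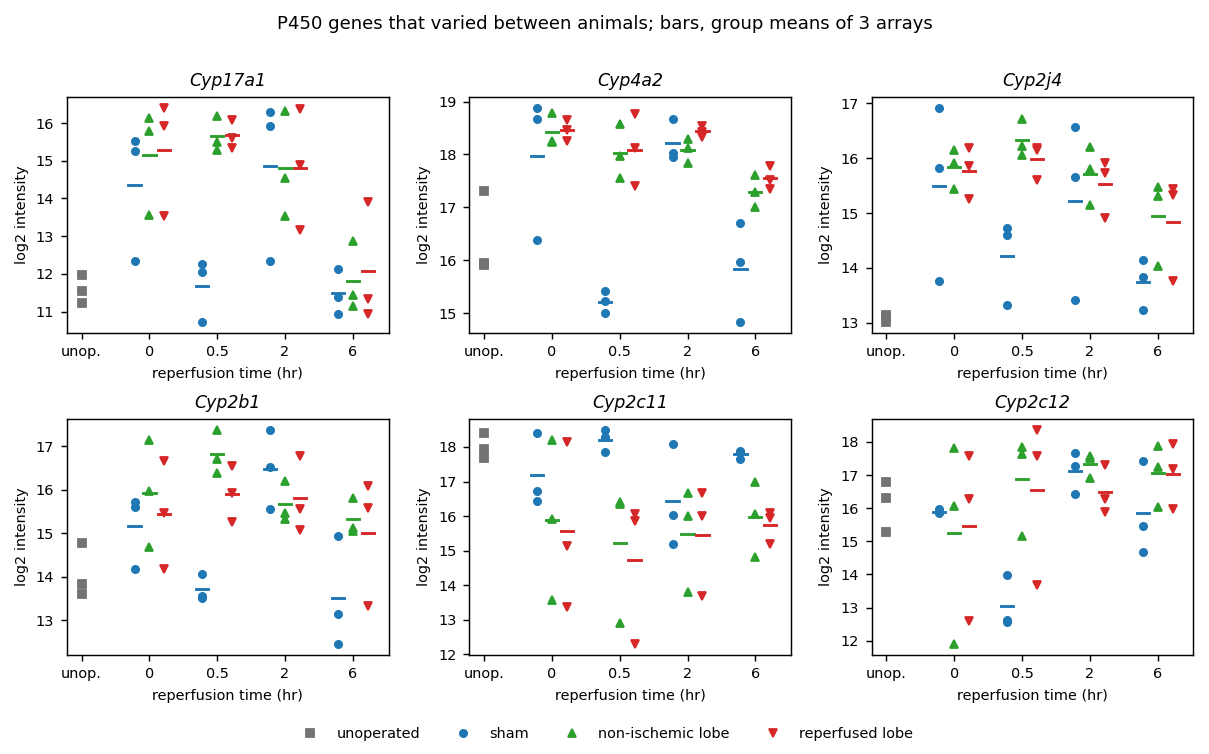
Log2 intensity (y axis) of 6 P450 genes that varied between animals, by reperfusion time (x axis, unop. for unoperated), with unoperated livers in grey, shams in blue, non-ischemic lobes in green and reperfused lobes in red, and bars at group means. The 0.5 hr and 6 hr shams lie low in Cyp17a1 (10.73 to 12.28) and Cyp4a2 (14.83 to 16.71), and single animals stand apart in both lobes in Cyp2c11 and Cyp2c12.

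The choice of shams decided the result at 0.5 hr. Against the 3 shams of 0.5 hr, 15 members were called in the reperfused lobes (8 higher, 7 lower) and 15 in the non-ischemic lobes (10 higher, 5 lower), with 11.6% and 12% of all probe sets called, where the pooled shams gave 0 and 1. The higher genes, with the reperfused lobes first, included Cyp17a1 (3.98, SE 0.40, and 3.96, SE 0.41), Cyp4a2 (2.87, SE 0.31, and 2.81, SE 0.25), Cyp2b1 (2.21, SE 0.32, and 3.12, SE 0.27) and Cyp2j4 (1.77, SE 0.36, and 2.12, SE 0.36). Cyp2b2, Cyp2b15 and Cyp3a23-3a1 were higher in both lobes as well. Lower in both were Cyp2c13 (-1.24, SE 0.22, and -1.45, SE 0.32), Cyp2c22 (-1.36, SE 0.20, and -1.07, SE 0.26), Cyp2t1, Cyp4f1 and Cyp2b3. The lobes and the 0.5 hr shams did not overlap in Cyp17a1 (15.28 to 16.19 against 10.73 to 12.28). The 2 hr shams, however, read 16.30, 12.35 and 15.91, so the same lobes lay within the range of shams of another time. The 6 hr shams (10.94 to 12.14) and the unoperated livers (11.23 to 11.96) lay close to the 0.5 hr shams in Cyp17a1. In Cyp2b1 the 6 hr shams read 12.45, 13.14 and 14.95 and the unoperated livers 13.61 to 14.77, against 13.50 to 14.07 in the 0.5 hr shams. So the 0.5 hr shams did not stand apart from all other sham groups in these genes. Differences between sham groups cannot be told apart here from an effect of the clamping.

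Over the 4 times 12 of the 45 members (26.7%) changed in the operated animals, against 36.4% of all probe sets. Beside Cyp17a1, Cyp2c22 and Cyp2c80 these were Cyp4f4 (q = 0.00099), Cyp2j3, Cyp39a1, Cyp4f39, Cyp2r1, Cyp4f17, Cyp2t1, Cyp4a2 and Cyp2b3. From 0 to 6 hr Cyp4f39 fell by 2.33, Cyp4f4 by 1.85 and Cyp2j3 by 1.50, and Cyp2c80 rose by 2.84. The time course of the operated animals differed from that of the shams for 3 members, Cyp4f4, Cyp2c22 and Cyp4a2, with 8.58% of all probe sets called. No member had a lobe difference that changed with time (0.692% of all probe sets called, 2 members at an unadjusted p under 0.05).

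Within an animal the lobes were close. The absolute difference between lobes with the same number was averaged over 12 animals. The SD between animals of the same time was that of the average of both lobes. The first was smaller than the second in 38 of the 45 tested P450 genes (84.4%), against 46.8% of all tested probe sets. The 7 exceptions were Cyp1a1, Cyp2b14l1, Cyp2b21, Cyp2b3, Cyp7b1, Cyp26a1 and Cyp39a1. For Cyp2c11 the lobes differed by 0.33 on average and the animals by an SD of 1.78, and for Cyp17a1 by 0.26 and 1.24. In Cyp26a1 the lobes differed by up to 2.18.

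Genes that serve P450s were read at 6 hr beside them. Of 13 redox partners and heme enzymes on the array 11 were tested, with median differences of -0.25 and -0.14. Cpox, an enzyme of heme synthesis, was higher in both lobes (0.71, q = 0.00565, and 0.82, q = 0.00228). Cyb5r3, a reductase of cytochrome b5, was lower in the non-ischemic lobes (-0.81, q = 0.0464), and Por differed by -0.55 (q = 0.358) and -0.37 (q = 0.579). Of 21 tested regulators 5 were lower and 1 was higher in the reperfused, and 6 lower and 1 higher in the non-ischemic lobes, with medians of -0.47 and -0.24. Lower in both were Ppara (-2.14, q = 0.00225, and -1.87, q = 0.0073), Ahr (-1.75 and -1.92), Esr1, the estrogen receptor (-1.81 and -1.39), Nr3c1, the glucocorticoid receptor (-1.29 and -1.21), and Cebpa (-1.12 and -1.05). The liver X receptor gene Nr1h3 was higher (0.85 and 0.62). Nr1i2 (-0.62 and -0.68) and Nr1i3 (-0.41 and -0.19) were not called. Of 7 tested conjugation enzymes 1 was lower in each lobe, Sult1e1 in the reperfused (-0.68, q = 0.0412) and Ephx1, the microsomal epoxide hydrolase, in the non-ischemic lobes (-0.83, q = 0.0119). Of 2 tested targets of the aryl hydrocarbon receptor outside the family, Nqo1 was higher in the non-ischemic lobes (1.46, q = 0.0476). Of all probe sets 9.25% and 9.74% were called lower and 19.7% and 15.1% higher in the reperfused and non-ischemic lobes. The 6 hr shams also differed from the earlier shams, where 11.3% of all probe sets were called. There 5 regulators were lower and 2 higher, with a median of -0.36. Of the redox and heme genes 1 was higher and 1 lower, and 1 target of the aryl hydrocarbon receptor was higher.

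Markers of cell types were read beside the 6 hr result. The summed level of 6 general hepatocyte markers lay between 21.75 and 21.85 in the shams and between 21.76 and 21.82 in the 6 hr lobes, and none of them passed the filter. Most of this sum came from genes near the top of the scale, such as Alb (mean 19.90), Ttr (19.59) and Apob (19.37), so it says little of the share of hepatocytes. Of 10 periportal hepatocyte markers 6 were lower in the reperfused and 3 in the non-ischemic lobes, with summed levels of 19.68 to 19.90 and 19.77 to 20.22 against 20.02 to 20.71 in the shams. Of 8 pericentral markers, the zone where many P450s are made, 1 was higher in each lobe (Tbx3) and none lower, with summed levels of 16.77 to 17.56 and 17.02 to 17.30 against 15.90 to 17.67 in the shams, and with Lgr5 under 5. Of 5 stellate cell markers 2 were lower in each lobe, Lrat and Colec11, with summed levels of 11.77 to 12.47 and 11.90 to 12.80 against 13.10 to 14.56 in the shams. Of 7 Kupffer cell markers 1 was lower in the reperfused and 3 in the non-ischemic lobes (14.10 to 15.11 in the lobes, 14.24 to 15.67 in the shams), and of 6 endothelial markers 2 and 1 (14.82 to 14.97 and 14.75 to 15.63). Of 5 neutrophil markers 3 were tested and S100a8 and S100a9 were higher in each lobe, with summed levels of 7.58 to 9.60 against 7.12 to 7.92 and with S100a8, Mpo and Csf3r under 5. Of 5 bile duct markers 2 were tested, of which 2 were higher in the reperfused and 1 in the non-ischemic lobes, with summed levels of 8.35 to 12.01 against 7.98 to 8.33. No tested marker of T and B cells or red cells was called. In the reperfused and non-ischemic lobes 9.25% and 9.74% of all probe sets were called lower and 19.7% and 15.1% higher. Between the 6 hr and the earlier shams 3 pericentral and 2 neutrophil markers were higher. Lower there were 2 periportal, 2 endothelial and 1 stellate cell marker, with 11.3% of all probe sets called. The part of these shifts in the P450 values was not tested.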

How the data were processed

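Livers of 27 rats were measured on 39 Affymetrix rat arrays. The deposited intensities are linear gene-level values that the authors made with SST-RMA in Affymetrix Expression Console 1.0, and they were put on the log2 scale here. Every value column was mapped to its sample by label (0 left unmapped). The members and gene lists were chosen with earlier results of these data known. Probe sets with an interquartile range above 0.26 (11704) were tested with limma 3.58.1 in R 4.3.3, and Benjamini-Hochberg q under 0.05 was a call. Pairwise fits held the compared groups alone, with the shams of all 4 times pooled as in the authors' methods. F-tests over time used animal means, and leaving out the array of 1 lobe left out the whole animal there. Scripts in Python 3.11.15 made the summaries, and the fits were tested on simulated data.

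The genes named were up to 10 called members with the largest rise and fall of each comparison (by q in F-tests), the highest member of each subfamily and reference enzymes of rat liver. Lobes with the same number were taken as the same animal. Their deviations from group means correlated at 0.103 to 0.902 over 2000 probe sets, and those of different numbers at 0.188 at most. At 6 hr the same numbers gave 0.103, 0.651 and 0.223, and reperfused 3 with non-ischemic 1 gave 0.188. The pairing at 6 hr thus rests on the labels. Deviations within 3 arrays sum to 0, which by itself lowers the correlations of different numbers.

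The alternatives were no filter, a filter on dim probe sets, quantile normalization, a trend and robust fit, 1 fit to all 36 arrays of clamped and sham rats, shams of the same time, the animal as a block, the mean of a gene's probe sets, single-digit families, each array left out, and, chosen after seeing the data, the pooled shams without those of 0.5 or of 6 hr. The number of arrays limits the precision. Replicates are separate animals. Of the 70 genes, 59 had a RefSeq start region in the table used here.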

Additional observations from a re-analysis of the deposited data

Results flagged for a closer look

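The time course of the operated animals differed from that of the shams in 3 P450 genes. This was tested on 24 animals as an interaction of time with the kind of surgery, clamping or sham. For Cyp2c22 the test gave q = 0.0291, with a change from 0 to 6 hr that was 1.98 higher in the operated animals. For Cyp4a2 it gave q = 0.0416 and a change 1.12 higher. For Cyp4f4 it gave q = 0.017 and a change 1.24 lower in the operated animals (fitted as -1.24). Of all probe sets 8.58% were called by this test. The count was 1 without the second sham of 0.5 hr or without the second operated animal of 6 hr, and 6 without the second sham of 2 hr. In the 36 fits that left out 1 array the call of Cyp4a2 was lost 25 times and that of Cyp2c22 9 times. Leaving out the array of a lobe left out its whole animal here. The fit without an operated animal is thus counted once for each of its lobes, and these fits are not all distinct.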

How the results depend on the processing

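At 6 hr the counts of called P450 genes were 18 in the reperfused and 16 in the non-ischemic lobes. They ranged from 13 to 20 and from 7 to 19 when single arrays were left out, the 7 without non-ischemic sample 1. Without the shams of 0.5 hr they were 15 and 12, and without those of 6 hr 17 and 18. With shams of the same time the count of the non-ischemic lobes at 6 hr was 10, those at 0.5 hr were 15 and 15, and those at 2 hr were 0 and 0. In 1 fit to all 36 arrays of clamped and sham rats the counts were 2 and 2 at 0 hr, 3 and 7 at 0.5 hr, 8 in the reperfused lobes at 2 hr, and 6 between the 6 hr and earlier shams. Of all probe sets this fit called 7.02% and 7.24% at 0 hr, 9.51% and 10.6% at 0.5 hr, 25.3% in the reperfused lobes at 2 hr and 17.4% between those shams. The 1 call of the non-ischemic lobes at 0.5 hr became 0 without the filter and 0 without the shams of 6 hr, and their 8 calls at 2 hr became 2 without the shams of 0.5 hr. Leaving out single arrays gave 0 to 2 and 0 to 3 at 0.5 hr in the reperfused and non-ischemic lobes, 0 to 9 and 1 to 11 at 2 hr, 1 to 4 between 6 hr and earlier shams, 0 to 2 between shams and unoperated livers, 10 to 15 for time and 1 to 6 for the interaction with time. The difference of Cyp3a9 between shams and unoperated livers turned to 0.97 with the mean of its probe sets, which differ from each other. The cause of the other moves was not tested.

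With the animal as a replicate block the lobes differed in 1 P450 gene at 0.5 hr (Cyp2b1) against 0 without it, and the block changed no other call between lobes. Of 54 differences of named genes, 53 kept their call after quantile normalization and 46 without the filter. Of 36 against shams, 17 kept it with shams of the same time. Over the 15 fits that left out 1 array, the calls at 6 hr were lost 10 times for Cyp2c11 in the reperfused lobes and 6 and 3 times for Cyp2j3 in the reperfused and non-ischemic lobes, and at 2 hr 11 times for Cyp39a1 in the non-ischemic lobes. Signal near background, as in Cyp1a1, and near the top of the scale, as in Cyp2c6v1, limits what could be detected.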
